A study of Danio rerio with 16 samples.

Results

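The genes described here are those that were higher after cryoinjury in mCherry-positive cells of the zebrafish heart and whose mean level at 7 days post injury (7 dpi) was higher in these cells than in the other sorted cells. They were chosen from the measured values. In the table of TPM (a transcript's length-corrected share of all transcripts in its library, scaled to the same total), every mCherry-positive library at 7 dpi had to lie above every uninjured one. The mean had to reach 10 TPM at 7 dpi and stay under 20 TPM in uninjured hearts, the mean plus 1 had to be at least 3 times as high after injury, and the mean at 7 dpi had to exceed that of both other sorts. Of 31388 gene IDs, 57 met every threshold, 5 of these, MYLK, apoeb, S1PR1 and NID2 among them, were among 14 IDs left out by name, and 52 genes remained. Of the 52, 47 carried a symbol, and symbols in capitals are names in the human style given to zebrafish gene IDs.

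The libraries came from adult fish aged 3 to 9 months, all of them, the uninjured ones included, carrying both reporters postnb:citrine and kdrl:mCherry. The promoter of kdrl, a receptor for vascular endothelial growth factor, drives mCherry in endothelial and endocardial cells, and postnb encodes a periostin, a matrix protein of activated fibroblasts. The 4 groups were mCherry-positive cells of uninjured hearts (3 libraries, pools 2 to 4), mCherry-positive cells at 7 dpi (4 libraries, pools 5, 6, 7 and 9), citrine-positive cells at 7 dpi (3 libraries, pools 7, 9 and 10) and, at 7 dpi too, the cells that carried neither colour, the double-negative sort (6 libraries, pools 5 to 10). Each sample pooled the ventricular apex of 3 to 5 hearts, and the labels do not say whether uninjured fish had a sham operation. Injured and uninjured hearts never shared a pool number, so injury and pool cannot be told apart. In such sorted bulk samples a difference in the share of cells that express a gene and a difference in RNA per cell cannot be told apart either.

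The inner surface of the ventricle is lined by endocardium and its muscle is fed by coronary vessels, and both carry kdrl. In the zebrafish these cells are known to respond to injury early: they change shape, release signals to muscle and fibroblasts, and help to rebuild the wound. The genes below encode proteins of several kinds, among them secreted signals, receptors and channels, regulators of the small GTPase RhoA, and regulators of transcription and cell death. Their part in such a response was not tested.

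The mCherry-positive sort matched its label. The endothelial marker kdrl itself averaged 387 ± 94.4 TPM (SD, n = 3) in uninjured mCherry-positive libraries, 214 ± 51.0 (n = 4) at 7 dpi, 1.1 ± 0.55 (n = 3) in citrine-positive and 36.9 ± 13.5 (n = 6) in double-negative libraries. Summed over 21 endothelial marker IDs, levels ran from 2789 to 4374 TPM in uninjured and from 2238 to 3864 TPM in injured mCherry-positive libraries. Citrine-positive libraries held 42.1 to 64.9 TPM of them and double-negative libraries 321.7 to 978.6 TPM, so the double-negative sort was not free of endothelial transcripts. Between 12111 and 16854 IDs reached 1 TPM per library. A pair of abundant IDs, ENSDARG00000098155 and ENSDARG00000103411, held 25.66% to 35.83% of all TPM in the 5 libraries of pools 9 and 10, which lowers every other gene there.

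Before the results, the values at each threshold show how sharply the set was drawn. DAP3 was the last gene inside on the level at 7 dpi, with a mean of 10.02 TPM, and GGCT the first outside with 9.93. On the ratio, si:ch1073-189m3.1 stood inside at 3.04 and CD276 outside at 2.98. Against double-negative libraries arhgap4a stood just inside (14.1 against 13.6 TPM) and mical3b just outside (23.0 against 23.6 TPM). Against citrine-positive libraries ENSDARG00000082269 stood inside (67.6 against 61.6 TPM) and quo outside (17.6 against 19.9 TPM). Of the uninjured means, the highest inside was 12.6 TPM, again of ENSDARG00000082269, and the nearest outside was 23.4 TPM, of UBR4. The overlap criterion alone kept out 183 IDs, the level at 7 dpi 85, the ratio 44, the double-negative mean 33, the citrine-positive mean 9 and the uninjured level 3. With 1 mCherry-positive library left out the same rule chose between 50 and 117 genes (117 without injured pool 9, 108 without injured pool 7, 99 and 91 without uninjured pools 3 and 2), and without injured pool 5 it shared 27 genes with the 52.

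Across the 52 genes the median of the group means was 1.54 TPM in uninjured and 17 TPM in injured mCherry-positive libraries, beside 4.24 TPM in citrine-positive and 7.88 TPM in double-negative libraries. The ratio of the rule, (mean + 1) over (mean + 1), ran from 3.04 to 43.1 with a median of 7.38. Levels were moderate: 19 genes averaged at least 20 TPM at 7 dpi and 3 at least 50 TPM. Of the 52 genes, 8 were listed at 0 in all 3 uninjured libraries and 17 were under 1 TPM in all of them. That all 52 lay above every uninjured library in every injured one was fixed by the rule (2.89% of all genes tested did). These values chose the genes and are given as a description. The limma test of mCherry-positive cells at 7 dpi against uninjured, across all genes, called 80 genes higher (0.42% of 19039 tested) and 52 lower (0.273%, or 0.693% in either direction), and 18 of the 52 genes were among the higher calls, a count that the choice of genes does not leave free.

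**Figure D1:**
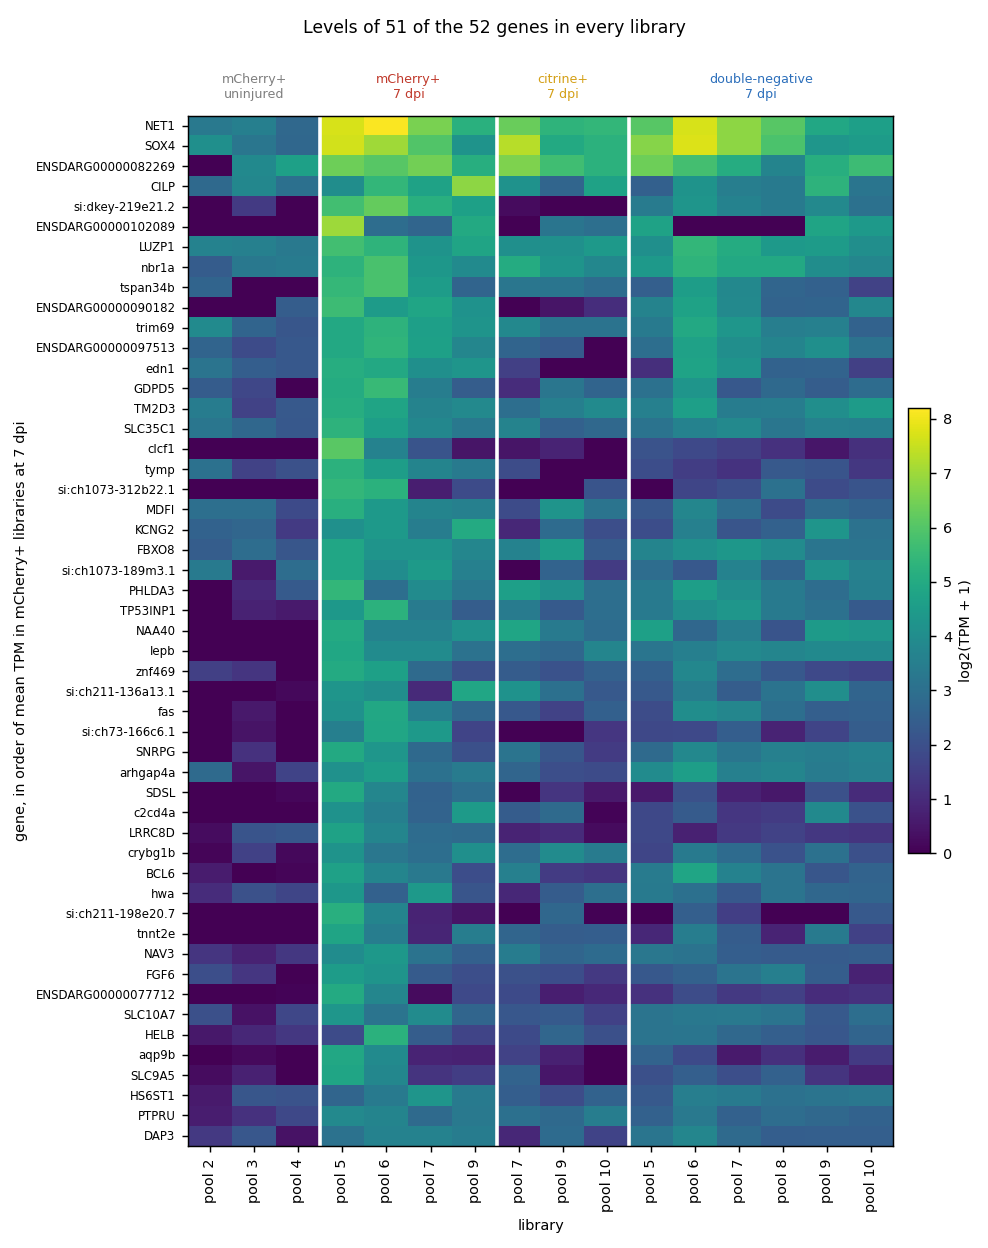
Level of each of 51 of the 52 genes (rows, ordered by mean TPM in mCherry-positive libraries at 7 dpi) in each of the 16 libraries (columns, by group and pool), as log2(TPM + 1) on the colour scale. The 3 uninjured columns are the darkest, the columns of pools 5 and 6 are the brightest of the injured mCherry-positive sort, and many genes are also bright in double-negative pool 6.

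Among secreted proteins, edn1, which encodes the vasoconstrictor peptide endothelin 1, known as a product of endothelial cells, was at 7.81, 4.49 and 3.83 TPM in the uninjured libraries of pools 2, 3 and 4. It was at 33.6, 29.8, 16 and 18.2 TPM in the injured mCherry-positive libraries of pools 5, 6, 7 and 9. All 4 injured libraries were at least 16 TPM, with no overlap, and no single one carried the group. Citrine-positive libraries averaged 0.65 ± 1.13 TPM, with pools 9 and 10 listed at 0, and double-negative libraries 9.43 ± 9.98 TPM, where pools 6 and 7, at 25.8 and 17.6 TPM, reached into the mCherry-positive range.

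The cytokine gene clcf1 encodes a ligand of the interleukin-6 family. It was listed at 0 in all uninjured libraries and at 67.6, 11.4, 3.35 and 0.37 TPM in injured pools 5, 6, 7 and 9. Pool 5 held 81.7% of the summed level, and pool 9 barely exceeded 0. In the other sorts clcf1 averaged 0.38 ± 0.38 TPM (citrine-positive) and 1.76 ± 1.03 TPM (double-negative).

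The gene for leptin b, lepb, is known in zebrafish as a gene switched on in injured tissue, the endocardium of the injured heart included. It was listed at 0 in all uninjured libraries and at 28.7, 14.5, 14.5 and 7.5 TPM in injured pools 5, 6, 7 and 9. Citrine-positive libraries, at 6.74, 5.61 and 12.2 TPM, and double-negative libraries, at 8.13 to 13.8 TPM with a mean of 12 ± 2.25, overlapped with the mCherry-positive range, and lepb was one of the genes found in every library at 7 dpi and in none of the uninjured ones.

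CILP, a matrix protein of cartilage and heart, had another profile. Uninjured libraries held 5.94, 13 and 7.22 TPM and injured pools 5, 6, 7 and 9 held 15.2, 41.6, 25.2 and 110.3 TPM. Pool 9 alone gave 57.4% of the summed level, the reverse of most other genes, and without that library CILP was the only gene of the 52 to leave the set. It averaged 15.9 ± 10.0 TPM in citrine-positive and 14.7 ± 12.3 TPM in double-negative libraries. The growth factor gene FGF6 averaged 1.44 ± 1.44 TPM in uninjured and 11.8 ± 9.66 TPM in injured mCherry-positive libraries, 2.52 ± 0.83 in citrine-positive and 5.38 ± 3.48 in double-negative ones. The other ID of that symbol, ENSDARG00000045856, was listed at 0 in all groups.

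**Figure D2:**
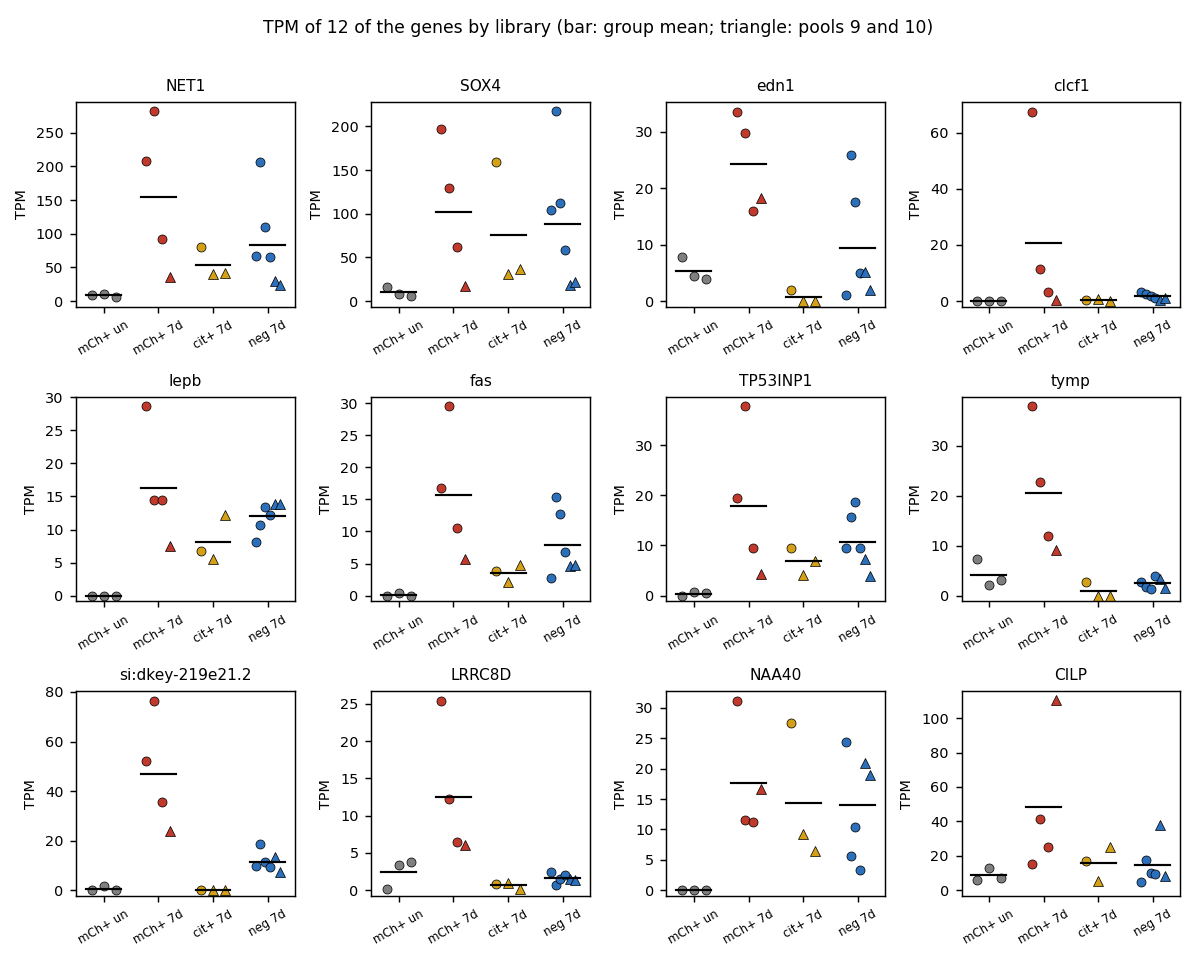
TPM of 12 of the genes in every library (points), by group, with bars at the group means and triangles for pools 9 and 10. In clcf1 a single library of 67.6 TPM sets the mean, in lepb all libraries at 7 dpi lie above an uninjured level of 0, and in si:dkey-219e21.2, tymp and LRRC8D the mCherry-positive libraries at 7 dpi lie above all others.

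Of receptors, fas, the death receptor of the tumour necrosis factor receptor family, averaged 0.16 ± 0.27 TPM in uninjured and 15.6 ± 10.3 TPM in injured mCherry-positive libraries. It stood at 3.52 ± 1.34 TPM in citrine-positive and 7.86 ± 5.03 TPM in double-negative libraries, so that it was low before injury and present in every sort after it. PTPRU, a receptor tyrosine phosphatase, averaged 1.41 ± 0.92 and 10.2 ± 3.30 TPM in uninjured and injured mCherry-positive libraries, beside 7.77 ± 2.19 in citrine-positive and 5.99 ± 1.60 in double-negative ones, and the highest of its 4 injured libraries held 33.4% of their sum. A 2nd ID of the symbol PTPRU, ENSDARG00000101081, averaged 0.40 and 0.34 TPM in uninjured and injured mCherry-positive libraries. It was highest in citrine-positive libraries, at 5.51 TPM, beside 1.54 TPM in double-negative ones.

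The tetraspanin gene tspan34b was at 5.19, 0 and 0 TPM in uninjured pools 2, 3 and 4 and at 42.7, 56.4, 22.2 and 5.26 TPM in injured pools 5, 6, 7 and 9. Injured pool 9 lay only just above uninjured pool 2. The means of the other sorts were 7.62 ± 1.06 TPM (citrine-positive) and 8.8 ± 7.80 TPM (double-negative).

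GDPD5, which in mammals cleaves the lipid anchors of cell surface proteins, was at 4.20, 2.32 and 0 TPM in the uninjured libraries and at 31.7, 45.4, 10.2 and 4.38 TPM in injured pools 5, 6, 7 and 9. The margin between the lowest injured and the highest uninjured library was again small. Citrine-positive libraries averaged 4.83 ± 3.62 and double-negative ones 7.75 ± 5.46 TPM. A 2nd ID of this symbol, ENSDARG00000076962, averaged 20.7 and 34.0 TPM in uninjured and injured mCherry-positive libraries, and reads shared between such copies were divided by estimate.

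TM2D3, a membrane protein with a TM2 domain, was at 9.82, 2.09 and 3.93 TPM uninjured and at 33.1, 26.3, 11.8 and 13.6 TPM in injured pools 5, 6, 7 and 9. Its means were 10.5 ± 3.77 TPM in citrine-positive and 15.2 ± 6.05 TPM in double-negative libraries, which overlapped with the mCherry-positive ones. The membrane protein gene hwa (huluwa), known in the zebrafish embryo for its part in setting up the body axis, averaged 2.15 ± 1.05 and 12.1 ± 9.15 TPM in uninjured and injured mCherry-positive libraries, 4.05 ± 3.06 in citrine-positive and 6.51 ± 1.98 in double-negative ones.

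Channels and carriers made up 6 genes. LRRC8D, a subunit of the anion channel that opens when cells swell, averaged 2.46 ± 1.95 TPM in uninjured and 12.6 ± 9.04 TPM in injured mCherry-positive libraries. Citrine-positive and double-negative libraries averaged 0.65 ± 0.43 and 1.60 ± 0.59 TPM, below even the uninjured mCherry-positive mean. KCNG2, a modifying subunit of voltage-gated potassium channels, averaged 4.01 ± 2.09 and 19.5 ± 8.98 TPM in uninjured and injured mCherry-positive libraries, with 3.36 ± 2.76 in citrine-positive and 7.98 ± 5.86 in double-negative ones. SLC35C1, which carries GDP-fucose into the Golgi for glycan synthesis, averaged 5.93 ± 2.24 and 20.8 ± 13.1 TPM, with 7.46 ± 3.73 citrine-positive and 10.5 ± 2.16 double-negative.

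The sodium-proton exchanger gene SLC9A5 averaged 0.29 ± 0.35 TPM in uninjured and 10.9 ± 12.3 TPM in injured mCherry-positive libraries, 1.83 ± 2.84 in citrine-positive and 2.88 ± 1.66 in double-negative ones. The SD of the injured group exceeded its mean, since pool 5 alone held 62.9% of the summed level. The same held for aqp9b, a channel for water and glycerol, at 0.05 ± 0.09 and 11.1 ± 13.5 TPM, with 0.92 ± 1.07 in citrine-positive and 1.93 ± 1.73 in double-negative libraries and a pool 5 share of 65.1%. SLC10A7, of the bile acid carrier family, was more even at 1.89 ± 1.41 and 11.7 ± 6.16 TPM, with 3.25 ± 1.09 and 7.36 ± 1.89 TPM in citrine-positive and double-negative libraries.

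Among regulators of RhoA and the cytoskeleton stood the most abundant gene of the set, NET1, an exchange factor that activates RhoA. Uninjured libraries held 8.96, 10.6 and 5.79 TPM, and injured pools 5, 6, 7 and 9 held 208, 282, 92.0 and 36.2 TPM. The lowest injured value was more than 3 times the highest uninjured one, and the injured values formed a high pair (pools 5 and 6) and a low pair (pools 7 and 9). Citrine-positive libraries were at 80.1, 39.6 and 42.4 TPM and double-negative libraries between 23.7 and 207 TPM, all above the uninjured range as well. Pool 6 was the highest library of both the mCherry-positive and the double-negative sort.

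The gene arhgap4a encodes a GTPase-activating protein, the opposite activity to an exchange factor. It averaged 2.87 ± 2.93 and 14.1 ± 6.97 TPM in uninjured and injured mCherry-positive libraries, 3.66 ± 1.5 in citrine-positive and 13.6 ± 4.92 in double-negative ones, so that its mCherry-positive and double-negative means at 7 dpi were nearly equal. LUZP1, a protein of actin fibres and centrosomes in mammalian cells, was at 11.5, 10.9 and 8.96 TPM uninjured and at 51.8, 39.7, 17.5 and 26.7 TPM in injured pools 5, 6, 7 and 9. Like si:ch1073-189m3.1 it had a ratio of 3.04, the lowest of the set, and its means were 17.5 ± 2.33 TPM in citrine-positive and 24.6 ± 10.3 TPM in double-negative libraries.

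NAV3, a microtubule-binding navigator protein, averaged 1.23 ± 0.43 and 11.8 ± 6.85 TPM in uninjured and injured mCherry-positive libraries, 7.16 ± 2.37 in citrine-positive and 5.53 ± 2.01 in double-negative ones. The troponin T gene tnnt2e, a paralog of a subunit of the muscle thin filament, was listed at 0 in all uninjured libraries and averaged 12 ± 10.8 TPM in injured mCherry-positive, 4.70 ± 0.60 in citrine-positive and 4.54 ± 4.18 in double-negative libraries. The summed level of 10 cardiomyocyte marker IDs ran from 731.3 to 1390.5 TPM in uninjured and from 411.0 to 754.8 TPM in injured mCherry-positive libraries. Most of it was tpm4a, with means of 981 ± 348 and 456 ± 119 TPM. MYL7 averaged 74.5 ± 29.9 and 44.0 ± 21.6 TPM, and TNNT2 (ENSDARG00000020610) 65.9 ± 56.6 and 104.8 ± 99.9 TPM. The part of muscle cells in the level of tnnt2e was not tested.

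Of transcription factors, SOX4, of the SoxC family, was at 15.9, 8.41 and 5.66 TPM in the uninjured libraries and at 197, 129.6, 62.1 and 17.5 TPM in injured pools 5, 6, 7 and 9. The groups were separated by the narrow step from 15.9 to 17.5 TPM. SOX4 was as high in single libraries of the other sorts, with 159.7 TPM in citrine-positive pool 7 and 217 TPM in double-negative pool 6. A 2nd ID, ENSDARG00000098834, averaged 2.40 and 12.8 TPM in uninjured and injured mCherry-positive libraries. It averaged 6.53 TPM in citrine-positive and 14.1 TPM in double-negative libraries.

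The repressor gene BCL6 averaged 0.20 ± 0.29 and 12.1 ± 9.15 TPM in uninjured and injured mCherry-positive libraries, 4.65 ± 5.35 in citrine-positive and 10.8 ± 8.46 in double-negative ones. MDFI, an inhibitor of myogenic factors, averaged 5.54 ± 2.57 and 19.7 ± 11.4 TPM, with 9.50 ± 7.68 in citrine-positive and 6.12 ± 3.50 in double-negative libraries. The zinc finger gene znf469, whose human counterpart is tied to corneal collagen disease, averaged 1.11 ± 0.98 and 16.1 ± 13.7 TPM, with 4.06 ± 0.84 in citrine-positive and 5.47 ± 4.04 in double-negative libraries.

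Another 3 genes act in the nucleus on chromatin, DNA or RNA. NAA40, an acetyltransferase of histone N-termini, was listed at 0 in all uninjured libraries and at 31.2, 11.6, 11.3 and 16.7 TPM in injured pools 5, 6, 7 and 9, with means of 14.4 ± 11.4 TPM in citrine-positive and 13.9 ± 8.68 TPM in double-negative libraries. A 2nd ID of the symbol NAA40, ENSDARG00000024109, went the other way, from 47.4 to 15.2 TPM, so the level of NAA40 as a whole is uncertain. The DNA helicase gene HELB averaged 0.94 ± 0.53 and 11.6 ± 17 TPM in uninjured and injured mCherry-positive libraries, with 3.69 ± 1.58 in citrine-positive and 5.90 ± 1.78 in double-negative ones. Pool 6 gave 80.1% of that injured level. SNRPG, a core protein of the spliceosome, averaged 0.41 ± 0.71 and 14.6 ± 12.6 TPM, with 4.42 ± 3.21 in citrine-positive and 9.96 ± 2.52 in double-negative libraries.

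Stress, cell death and protein turnover were represented by further genes. TP53INP1, which acts in cell death and autophagy in mammals, averaged 0.41 ± 0.37 TPM in uninjured and 17.8 ± 14.7 TPM in injured mCherry-positive libraries, 6.83 ± 2.77 in citrine-positive and 10.8 ± 5.45 in double-negative ones. PHLDA3, which restrains the kinase Akt in mammals, averaged 1.64 ± 2.1 and 18.0 ± 16.3 TPM, with 15.7 ± 8.47 in citrine-positive and 12.5 ± 6.05 in double-negative libraries. DAP3, a protein of the mitochondrial ribosome first described in cell death, averaged 1.87 ± 1.72 and 10.0 ± 1.85 TPM, with 3.13 ± 2.86 in citrine-positive and 6.75 ± 3.16 in double-negative libraries. Its libraries at 7 dpi were the most even of the 52 genes, with 28.5% of the sum in the highest.

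The autophagy receptor gene nbr1a was at 4.21, 8.8 and 9.68 TPM uninjured and at 38.5, 56.1, 19.3 and 14.0 TPM in injured pools 5, 6, 7 and 9. It was nearly as high in the other sorts, with 21.1 ± 10.0 TPM in citrine-positive and 24.5 ± 10.1 TPM in double-negative libraries. The ubiquitin ligase gene trim69 was at 14.3, 5.22 and 3.59 TPM uninjured and at 29.7, 38.6, 23.8 and 18.0 TPM in injured pools 5, 6, 7 and 9. Its means were 9.47 ± 3.10 TPM in citrine-positive libraries, all of them below the mCherry-positive ones, and 14.1 ± 8.98 TPM in double-negative libraries. The F-box gene FBXO8, of a family of substrate receptors of ubiquitin ligases, averaged 4.80 ± 1.57 and 19.1 ± 6.43 TPM in uninjured and injured mCherry-positive libraries, 12.4 ± 8.99 in citrine-positive and 13 ± 4.57 in double-negative ones.

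Of metabolic enzymes, tymp encodes thymidine phosphorylase, which breaks down thymidine and is known in mammals for promoting vessel growth. It averaged 4.14 ± 2.80 and 20.5 ± 13.1 TPM in uninjured and injured mCherry-positive libraries, against 0.91 ± 1.58 in citrine-positive and 2.44 ± 1.06 in double-negative ones. SDSL, a serine dehydratase-like enzyme of amino acid breakdown, averaged 0.04 ± 0.06 and 13.7 ± 11.6 TPM, with 0.63 ± 0.71 in citrine-positive and 1.48 ± 1.29 in double-negative libraries. Both were higher in every injured mCherry-positive library than in any other library. HS6ST1 adds sulfate to heparan chains that bind growth factors, and averaged 2.44 ± 1.67 and 10.4 ± 5.47 TPM, with 4.06 ± 1.15 in citrine-positive and 7.91 ± 2.24 in double-negative libraries. A 2nd ID of HS6ST1, ENSDARG00000054754, went from 17 to 8.83 TPM, so the level of this gene as a whole is uncertain too.

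Several of the steepest profiles belonged to genes of little or no annotation. The gene si:dkey-219e21.2 was at 0, 1.63 and 0 TPM uninjured and at 52.1, 76.5, 35.4 and 24.1 TPM in injured pools 5, 6, 7 and 9. It was close to absent from citrine-positive libraries, with 0.17, 0 and 0 TPM, and stood at 7.27 to 18.5 TPM in double-negative ones, below every mCherry-positive library at 7 dpi. The ID ENSDARG00000102089 had the largest ratio, 43.1, but an uneven one. It was listed at 0 in the uninjured libraries and at 126, 6.56, 5.41 and 30.7 TPM in injured pools 5, 6, 7 and 9, with 74.7% in pool 5. In the other sorts it averaged 5.07 ± 4.43 TPM (citrine-positive) and 12.1 ± 13.4 TPM (double-negative), where it was listed at 0 in pools 6, 7 and 8 and at 20.4 to 26.5 TPM in pools 5, 9 and 10.

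The ID ENSDARG00000082269 was at 0, 13.8 and 24.1 TPM uninjured and at 83.2, 66.0, 86.9 and 34.1 TPM in injured pools 5, 6, 7 and 9, with means of 61.6 ± 31.4 TPM in citrine-positive and 43.8 ± 23.7 TPM in double-negative libraries. ENSDARG00000090182 was at 0, 0 and 4.36 TPM uninjured and at 48.0, 21.4, 27.5 and 17.1 TPM in the same injured pools, and nearly absent from citrine-positive libraries (0.50 ± 0.56 TPM) while double-negative ones held 12.3 ± 7.46 TPM. ENSDARG00000097513 was at 5.24, 2.68 and 3.74 TPM uninjured and at 30.2, 40.3, 24.1 and 12.5 TPM injured, with 3.08 ± 2.74 TPM in citrine-positive and 13.8 ± 6.66 TPM in double-negative libraries. The files and name tables used give these IDs no symbol. The last ID without one, ENSDARG00000077712, went from 0.02 ± 0.03 to 11.7 ± 14.3 TPM, with 1.38 ± 1.07 in citrine-positive and 1.64 ± 0.63 in double-negative libraries.

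The gene si:ch1073-312b22.1 was listed at 0 in the uninjured libraries and at 42.2, 36.4, 0.61 and 2.67 TPM in injured pools 5, 6, 7 and 9. Pools 5 and 6 thus carried it nearly alone, and the other sorts averaged 1.12 ± 1.95 TPM (citrine-positive) and 3.08 ± 2.36 TPM (double-negative). A different order held for si:ch211-136a13.1, at 0, 0 and 0.14 TPM uninjured and 18.4, 15.5, 0.95 and 28.0 TPM injured, where pool 9 was the highest and pool 7 the lowest. It averaged 9.44 ± 6.97 TPM in citrine-positive and 7.81 ± 4.43 TPM in double-negative libraries. The gene si:ch73-166c6.1 was at 0, 0.34 and 0 TPM uninjured and at 10.5, 28.2, 20.9 and 2.22 TPM injured, with 0.49 ± 0.85 TPM in citrine-positive and 2.78 ± 1.41 TPM in double-negative libraries, so that pools 6 and 7 led.

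The gene c2cd4a, described in human endothelial cells as induced by inflammatory cytokines, was listed at 0 in all uninjured libraries and at 17.3, 10.7, 5.07 and 21.0 TPM in injured pools 5, 6, 7 and 9. All 4 injured libraries contributed, with the highest holding 38.9%. The other sorts averaged 3.45 ± 3.08 TPM (citrine-positive) and 4.42 ± 4.65 TPM (double-negative). The crystallin-domain gene crybg1b averaged 0.74 ± 1.1 and 12.2 ± 5.30 TPM in uninjured and injured mCherry-positive libraries, 10.3 ± 4.07 in citrine-positive and 5.24 ± 2.81 in double-negative ones. For ENSDARG00000097616, given here by its ID, the means were 0 and 12.1 ± 16.3 TPM, with 1.88 ± 3.24 in citrine-positive and 1.74 ± 2.11 in double-negative libraries, and pool 5 held 72.9%. For si:ch1073-189m3.1 they were 5.47 ± 4.52 and 18.7 ± 7.47 TPM, with 2.28 ± 2.64 and 9.2 ± 4.84 TPM in citrine-positive and double-negative libraries.

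The 4 injured mCherry-positive libraries did not contribute alike. The summed level of the 52 genes was 158.4, 139.1 and 127.3 TPM in uninjured pools 2, 3 and 4. In injured mCherry-positive pools 5, 6, 7 and 9 it was 1951.7, 1579.6, 798.6 and 678.7 TPM. Pool 5 was the highest of the 4 libraries for 31 of the 52 genes (59.6%, beside 34.1% of all genes tested that had a single highest library), pool 6 for 14, pool 7 for 3 (ENSDARG00000082269, hwa and HS6ST1) and pool 9 for 4 (CILP, KCNG2, c2cd4a and si:ch211-136a13.1). Of all genes tested that had a single highest library, pool 6 was highest in 25.6%, pool 7 in 10.8% and pool 9 in 29.5%. Pool 9 was the lowest for 31 of the 52 genes, though over all genes it was the lowest least often of the 4 libraries. A single library held over 50% of the summed level at 7 dpi in 17 genes, led by clcf1 and HELB. Double-negative libraries summed to 592.1, 1106.6, 691.3, 466.4, 507.1 and 417.4 TPM in pools 5 to 10, and citrine-positive libraries to 653.0, 396.5 and 352.5 TPM in pools 7, 9 and 10. Every library at 7 dpi, of any sort, thus held more of these transcripts than the highest uninjured library.

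**Figure D3:**
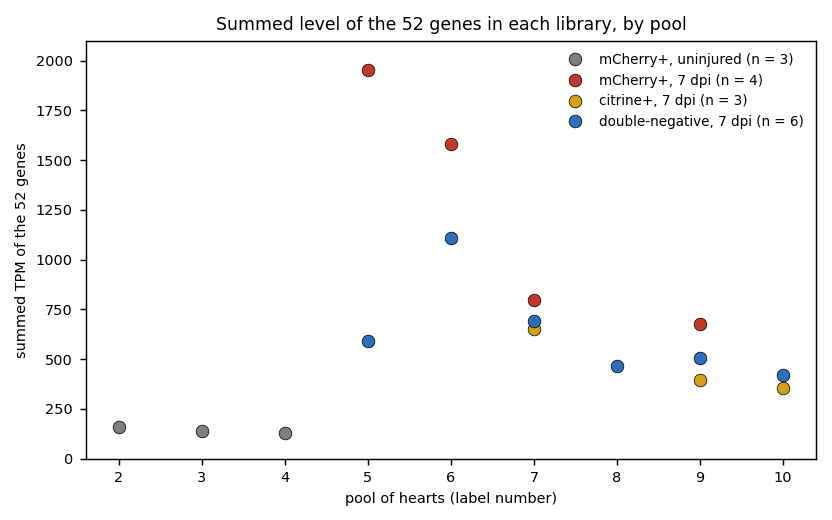
Summed TPM of the 52 genes in each library (points) by pool of hearts, coloured by sort. The 3 uninjured libraries sit between 127.3 and 158.4 TPM, mCherry-positive pools 5 and 6 at 1951.7 and 1579.6 TPM, and the sorts differ less from each other in pools 7, 9 and 10.

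In the same libraries the levels of other cell types' markers also differed between the groups. Macrophage markers (21 IDs) summed to 114.4 to 427.0 TPM in uninjured and 297.7 to 1203.8 TPM in injured mCherry-positive libraries, beside 1609.0 to 2744.2 TPM in double-negative and 49.7 to 63.1 TPM in citrine-positive libraries. None of these IDs was at 0 throughout either mCherry-positive group, and ptprc, a marker of all leukocytes, averaged 5.86 ± 2.51 and 22.7 ± 15.2 TPM in uninjured and injured mCherry-positive libraries. Fibroblast and epicardial markers (13 IDs) summed to 587.7 to 821.7 TPM in uninjured libraries, where TCF21, TBX18, WT1 and LUM were at 0 throughout, and to 626.0 to 2181.7 TPM in injured ones, where none was. Citrine-positive libraries held 2984.4 to 9779.1 TPM and double-negative ones 1142.8 to 3040.9 TPM. Most of the uninjured sum was col1a1a, ALDH1A2 and POSTN (ENSDARG00000043806), with means of 236, 211 and 136 TPM. At 7 dpi ALDH1A2 was higher in mCherry-positive than in citrine-positive libraries (197 against 52.9 TPM). Of 7 thrombocyte marker IDs, with 2 at 0 in all uninjured libraries, the sums were 18.7 to 35.3 and 25.7 to 176.7 TPM. Neutrophil markers (4 IDs, lyz at 0 in all uninjured libraries) summed to 3.2 to 22.7 and 6.1 to 20.7 TPM, and erythroid markers (6 IDs) to 28.0 to 69.4 and 6.1 to 188.4 TPM. The part of these cells in the levels above was not tested.

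How far the set belonged to mCherry-positive cells differed from gene to gene. By mean, the level at 7 dpi was between 1.04 (arhgap4a) and 11.7 (clcf1) times the double-negative mean, with a median of 2.02. It was at least 2 times both other means in 24 genes, and under 1.5 times the double-negative mean in 13, among them SOX4, LUZP1, nbr1a, lepb, BCL6 and DAP3. By single libraries, all mCherry-positive libraries at 7 dpi lay above all double-negative ones in 4 genes (beside 3.77% of all genes tested) and above all citrine-positive ones in 16 (beside 11.6%), trim69, edn1, KCNG2, fas and arhgap4a among them. The genes above both other sorts in every library were si:dkey-219e21.2, tymp, SDSL and LRRC8D (2.93% of all genes tested lay above both). Since the rule used these contrasts, the counts are descriptions, and they show that the label of genes highest in endothelial cells holds for group means and not for each library.

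Sorts can be set side by side within pool numbers, assumed to mark the same hearts, which the labels do not state. There mCherry-positive exceeded double-negative levels in 50 of the 52 genes in pool 5, 40 in pool 6, 29 in pool 7 and 34 in pool 9. Over all genes tested the shares were 51.2%, 36.8%, 29.9% and 45.7%. The rule had required higher means in these same libraries, so a higher share was built in and the counts by pool are descriptions. In all 4 shared pools 15 genes were higher (10.0% of all genes), among them tymp, SDSL, LRRC8D, KCNG2, CILP, c2cd4a and tspan34b. Against citrine-positive cells 36 genes were higher in pool 7 (46.4% of all genes) and 35 in pool 9 (59.2%), and 26 in both (33.3%), with edn1, fas, lepb and FGF6 among these.

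**Figure D4:**
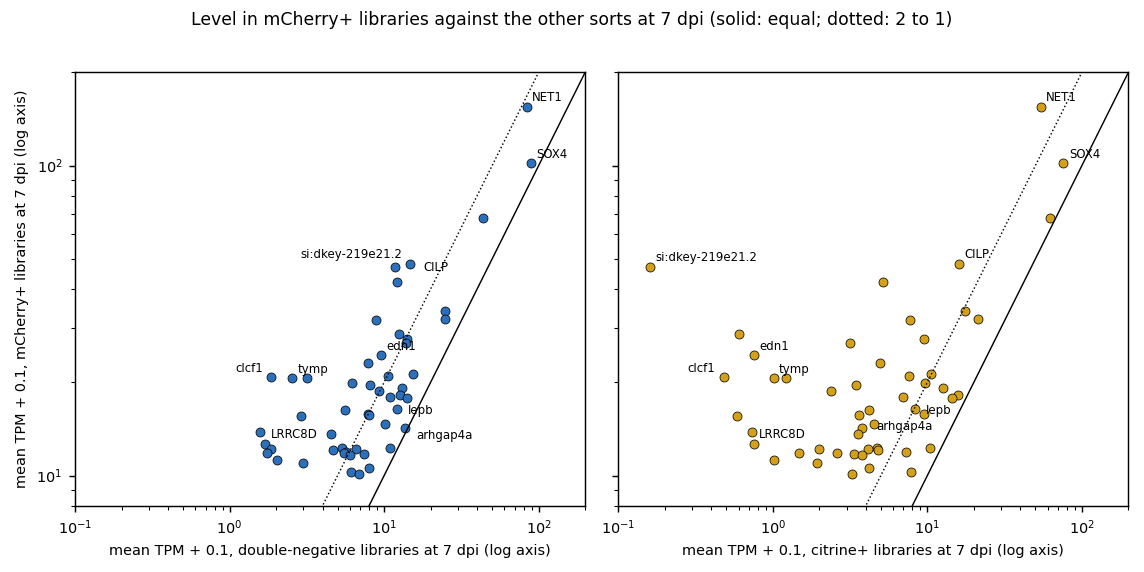
Mean TPM + 0.1 of each of 51 genes in mCherry-positive libraries at 7 dpi (vertical) against double-negative (left) and citrine-positive (right) libraries at 7 dpi, on log axes, with a solid line at equal levels and a dotted line at 2 to 1. SOX4 lies close to the solid line in both panels, while clcf1, tymp and LRRC8D lie far to its left.

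Injury-related levels outside the mCherry sort could only be set beside uninjured mCherry-positive libraries, since no uninjured library of another sort was among the samples. In 44 of the 52 genes the uninjured mean was the lowest of the 4 groups. The rule had put that mean below the injured mCherry-positive one, and no share over all genes stands beside this count. All 13 libraries at 7 dpi lay above all 3 uninjured ones in 21 genes (beside 0.977% of all genes tested), among them NET1, SOX4, LUZP1, nbr1a, PHLDA3, TP53INP1, NAA40, lepb, znf469, si:ch211-136a13.1, fas, SNRPG, c2cd4a, crybg1b, BCL6, tnnt2e, NAV3, ENSDARG00000077712, HELB and PTPRU. Every double-negative library lay above every uninjured one in 36 genes (beside 12.5%), and every citrine-positive library did in 23 (beside 9.84%). The rule required low uninjured levels, so these shares are descriptions too, and they mix cell type with injury. At the other end, tymp and LRRC8D were lower in double-negative and in citrine-positive cells at 7 dpi than in uninjured mCherry-positive cells by mean, and edn1, KCNG2, si:dkey-219e21.2, si:ch1073-189m3.1, ENSDARG00000090182 and ENSDARG00000097513 were so in citrine-positive cells.

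The comparison of citrine-positive with double-negative cells at 7 dpi was not itself a criterion of the rule. Both means had to lie below the mCherry-positive mean, however. That alone kept out 33 IDs by the double-negative and 9 by the citrine-positive mean, so this comparison is not free of the rule. In it 5 of the 52 genes were lower in citrine-positive cells and none was higher (limma on log2(TPM + 1), Benjamini-Hochberg over 19039 genes). Over all genes 1538 were lower (8.08%) and 338 higher (1.78%), 9.85% in all, so that 5 of 52 is close to the share among all genes. An unadjusted p under 0.05 was found in 7 of the 52 genes, all lower, beside 4099 of all 19039. The largest difference was that of si:dkey-219e21.2, at -3.52 ± 0.45 (log2 difference ± SE, limma adjusted p = 3.03e-05), which was lower in all 3 citrine-positive libraries than in all 6 double-negative ones. ENSDARG00000090182 was lower by the same measure at -3.03 ± 0.59 (limma adjusted p = 0.00188), ENSDARG00000097513 at -2.11 ± 0.55 (adjusted p = 0.0173), the endothelin gene edn1 at -2.28 ± 0.68 (adjusted p = 0.0366) and arhgap4a at -1.64 ± 0.49 (adjusted p = 0.0401). Groups did not overlap in the first 3 of these named IDs and in arhgap4a, that is in 4 genes (beside 12.7% of all genes tested), while citrine-positive pool 7 of edn1, at 1.96 TPM, lay above double-negative pools 5 and 10.

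The call of 3 of these genes depended on single libraries and on the assumed pairing of sorts by pool. With pool as a replicate block 2 genes were called, si:dkey-219e21.2 (-3.28, limma adjusted p = 0.000676) and ENSDARG00000090182 (-2.99, limma adjusted p = 0.00342), and 1307 genes in all. Leaving out each library in turn kept these genes called 9 of 9 times, ENSDARG00000097513 8 times, edn1 4 times and arhgap4a 3 times. The count fell from 5 to 3 without double-negative pool 6, 7 or 8 and to 2 without citrine-positive pool 10. Within pools up to 8, where the citrine-positive sort had only the library of pool 7 and was assumed to vary like the other groups, si:dkey-219e21.2 was the gene called. Within pools 9 and 10, with 2 libraries of each of these sorts, it was joined by arhgap4a, ENSDARG00000090182 and ENSDARG00000102089. The median difference of the 52 genes was -0.53 (41 below 0, 11 above), beside -0.23 for all genes (11860 below 0, 7171 above), and this gap closed to 0.05 in favour of the 52 genes with the pool block. Of the genes with positive values, crybg1b had the largest, at 0.92 ± 0.51 (limma adjusted p = 0.317). It was higher in citrine-positive than double-negative cells in each of the 3 shared pools, as were SOX4, NAV3, nbr1a and PTPRU (5 of 52 genes, beside 11.5% of all genes). Over all libraries, however, the differences of SOX4 and nbr1a were below 0 (-0.14 ± 0.77 and -0.2 ± 0.47).

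**Figure D5:**
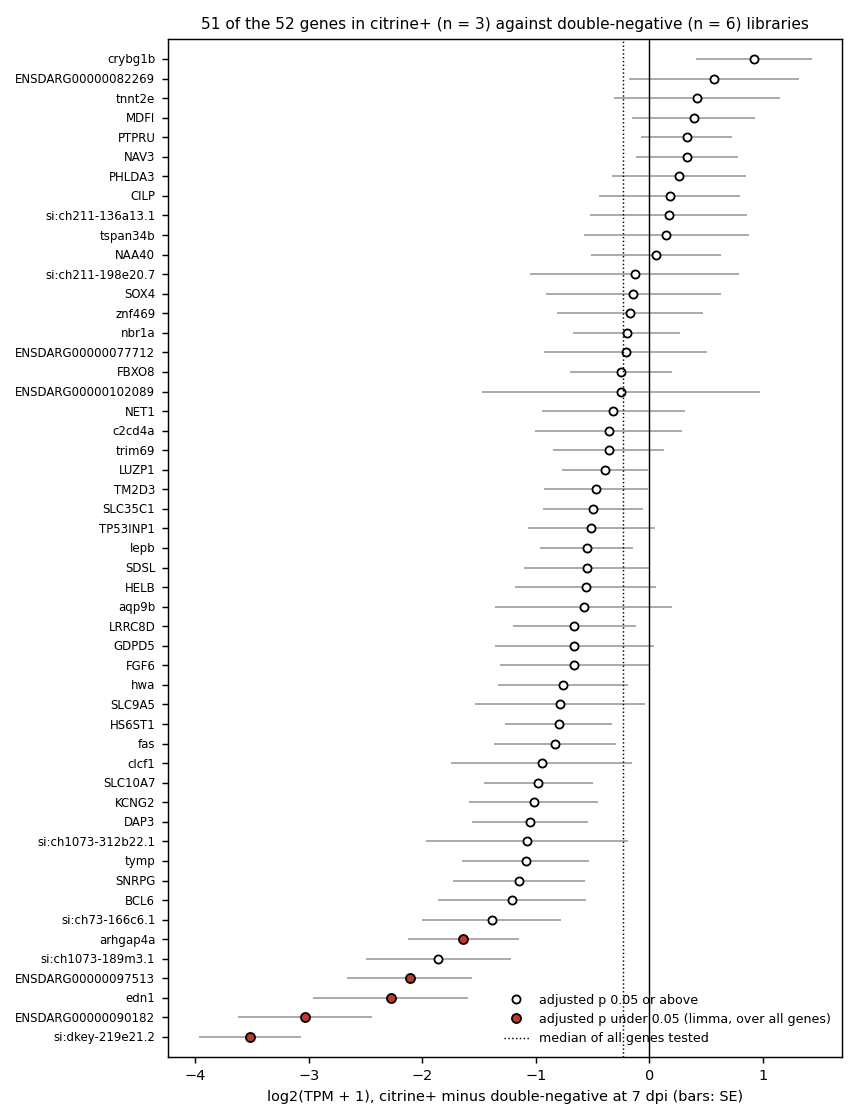
Difference between citrine-positive (n = 3) and double-negative (n = 6) libraries at 7 dpi for 51 of the 52 genes, as log2(TPM + 1) with bars of 1 SE, filled where the limma adjusted p over all genes was under 0.05. The 5 filled points are all at the negative end, from -1.64 to -3.52, and the dotted line marks the median of all genes at -0.23.

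To place the genes among their pathways, 12 lists were read in mCherry-positive cells at 7 dpi against uninjured, with the genes of the set itself taken out. Of 156 tested IDs 9 rose and 1 fell (limma adjusted p under 0.05 over all genes), beside 0.42% and 0.273% of all genes. The median log2 difference was 0.10 beside -0.06 for all genes. The lists were chosen with earlier results of these data known, so the calls describe the lists and do not test them. The set shared fas, clcf1 and NET1 with these lists. NID2, S1PR1 and tnfrsf11a are among the IDs left out of the set by name. Of these, NID2 and S1PR1 had met every threshold of the rule, so their rise was fixed by it. Such IDs stay in the counts above, and their adjusted p below are descriptions.

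Of 14 tested RhoA signalling IDs, NET1 was the member of the set, and of the other 13 none rose and 1 fell: RND3, an antagonist of RhoA, from 201 ± 64.8 to 63.7 ± 21.0 TPM (log2 difference -1.66 ± 0.38, limma adjusted p = 0.0477). A 2nd RND3 ID, ENSDARG00000007396, averaged 2.07 and 3.38 TPM (0.31 ± 0.69, limma adjusted p = 0.922). The list's median was -0.24. In the tumour necrosis factor receptor list, with fas in the set, 1 of 9 other IDs rose, tnfrsf11a, the receptor known as RANK, from 1.92 ± 1.58 to 39.0 ± 18.7 TPM (3.85 ± 0.70, limma adjusted p = 0.00963), at a list median of 0.04.

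In 5 further lists 1 or 2 IDs were called. Among 14 basement membrane IDs the nidogen gene NID2 rose from 8.07 ± 1.02 to 66.4 ± 38.0 TPM (2.69 ± 0.43, limma adjusted p = 0.00555) and the laminin chain gene LAMB2 from 0.51 ± 0.85 to 8.86 ± 7.74 TPM (2.57 ± 0.52, limma adjusted p = 0.0220). Among 14 integrin IDs ITGA6 rose by 2.78 ± 0.51 and ITGA4 by 1.89 ± 0.42 (limma adjusted p = 0.0105 and 0.0425), and the median of that list, 0.79, was the highest of the 12. The sphingosine-1-phosphate receptor gene S1PR1 rose from 1.44 ± 1.79 to 27.4 ± 17.5 TPM (limma adjusted p = 0.00325, 1 of 10 IDs). The hexosamine enzyme gene GFPT2 rose from 0.64 ± 1.05 to 24.4 ± 15.8 TPM (limma adjusted p = 0.00743, 1 of 9 IDs). Of 2 IDs of the cholesterol-binding lysosomal gene NPC2, ENSDARG00000096979 rose from 0.22 ± 0.38 to 34.9 ± 16.9 TPM (4.81 ± 0.40, limma adjusted p = 6e-06, 1 of 13 IDs). The more abundant ID, ENSDARG00000090912, averaged 66.4 ± 14.0 and 98.9 ± 35.8 TPM and was not called (0.53 ± 0.34, limma adjusted p = 0.581). The called NPC2 ID was higher still in double-negative cells, at 84.5 TPM, and listed at 0 in all citrine-positive libraries. The uncalled one averaged 127.8 TPM in double-negative and 21.6 TPM in citrine-positive libraries. Other IDs that rose also had a higher mean at 7 dpi in another sort. LAMB2 averaged 43.55 TPM in citrine-positive and 20.84 TPM in double-negative libraries, and ITGA4 32.19 and 57.28 TPM. GFPT2 averaged 39.29 TPM in citrine-positive and tnfrsf11a 45.66 TPM in double-negative libraries. By contrast, NID2, S1PR1 and ITGA6 had their highest mean in mCherry-positive libraries at 7 dpi. NID2 was nearly as high in citrine-positive libraries (63.2 ± 23.0 beside 66.4 ± 38.0 TPM) and averaged 35.7 TPM in double-negative ones. S1PR1 averaged 15.9 and 17.6 TPM in citrine-positive and double-negative libraries, and ITGA6 1.36 and 2.78 TPM. The part of macrophages and other cells in these levels was not tested.

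No ID was called among 19 of tip cells and sprouting, 12 EMT transcription factors, 15 of TGF-beta and BMP signalling and 13 of the cell cycle. The lists' medians were 0.00, 0.11, 0.37 and 0.14, and 5, 2, 4 and 1 of their IDs had an unadjusted p under 0.05. The lowest p in these lists were those of nrp1b (-1.30 ± 0.38, limma adjusted p = 0.154) and pdgfba (1.88 ± 0.63, 0.223), of snai2 and ZEB2 (1.39 ± 0.57 and 1.28 ± 0.53, both 0.346), of TGFBR1 (1.30 ± 0.41, 0.189), and of RRM2 and CCNA2 (-2.31 ± 0.78 and 1.16 ± 0.60, 0.230 and 0.479). A 2nd RRM2 ID, ENSDARG00000078069, went the other way (0.80 ± 0.76, limma adjusted p = 0.740). A 2nd TGFBR1 ID, ENSDARG00000017494, was at 0.19 ± 0.64 (limma adjusted p = 0.958). The 10 calls rested on the spread shared by all 4 groups: fitted on the mCherry-positive libraries alone 4 genes were called in all, NPC2 (ENSDARG00000096979) the one of these lists. Without uninjured pool 2 or uninjured pool 4 there were 6 calls in the lists, and with the first of these left out 83 genes in all. Without injured pool 9 there were 207 genes.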

How the data were processed

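The authors deposited 1 table of TPM per gene ID and library (31388 IDs, 16 libraries). The file names no unit, but every library sums to the same round total, and the depth behind the values is unknown, so no counting interval is given. The submitters' processing notes name RSEM 1.2.25, cutadapt, CASAVA 1.8.2 and the build Zv9, and RSEM divides reads shared by similar transcripts by estimate. Per the labels' protocols, libraries were made from 0.2 to 0.6 ng of RNA by the Ovation Single Cell kit (a TruSeq v2 kit is also named) and read as single reads of 60 bases.

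The genes and lists were chosen with earlier results of these data known. Genes were chosen by the rule in the report from the TPM as deposited. All 52 passed the filter below, through the group where they are high, so that passing supports nothing. Tests were limma-trend fits (limma 3.58.1, R 4.3.3) to log2(TPM + 1), 1 mean per group over all 16 libraries. An ID was tested where 3 or more libraries held 1 TPM or more, which 19039 did, and the threshold was an adjusted p of 0.05 (Benjamini-Hochberg over all of them). Differences are on that log2 scale, which understates changes of low genes. The script was tested on simulated data, with 50 changed genes at each size of change. For mCherry-positive cells at 7 dpi against uninjured, it called 0 at a log2 change of 1, 20 at 2 and 41 at 3. For citrine-positive against double-negative cells it called 2, 29 and 39. Small changes would thus mostly be missed. Tables and plots were made with Python 3.11.15, numpy 2.4.6, pandas 2.3.3 and matplotlib 3.10.9.

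The labels give libraries a pool number, read here as the pool of hearts. They do not say that equal numbers across sorts come from the same hearts. Deviations of citrine-positive and double-negative libraries from their group means correlated within pools 7, 9 and 10 at 0.16, 0.23 and 0.19. No values for unlike pools stand beside these, so they do not show that the samples are paired. The pairing was assumed, and the fit with pool as a replicate block is printed where it changes a call. Alternatives were another scaling, pseudocounts of 0.1 and 5, other filters, a fit on the compared groups alone, each library left out, and pools up to 8 or from 9 on alone. The split by pools for the citrine-positive comparison was chosen after the data were seen.

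Every gene with a symbol is named with its 4 group means, with values by library for the 15 highest and the 10 of largest ratio. For citrine-positive against double-negative cells up to 10 called genes per direction are named, and of each pathway list every called gene or else 2 by lowest p. A few genes that this rule names are not reported here. Of the fixed list entries 122 pathway and 72 marker genes matched by symbol, 35 and 19 after dropping a paralog letter, and 5 and 12 not at all. Of the 52 genes 35 matched a RefSeq symbol (GRCz12tu), none of them neighbours in the genome. That assembly differs from Zv9, so no coordinates are printed, and promoter and protein sequences were not analysed here.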

Additional observations from a re-analysis of the deposited data

Results flagged for a closer look

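In 104 group profiles (the injured mCherry-positive and the double-negative libraries of each of the 52 genes), the highest or lowest library was tested for a gap to the rest that is large against the range (Dixon's 95% critical value), which chance alone gives in about 1 of 20. It was found in 6, of which 2 were mCherry-positive and 4 double-negative. The cytokine gene clcf1 was at 67.58 TPM in mCherry-positive pool 5 and between 0.37 and 11.37 TPM in the other injured libraries. The helicase gene HELB was at 37.02 TPM in mCherry-positive pool 6 and between 2.21 and 4.34 TPM in the others. In double-negative pool 6, GDPD5 was at 18.55 TPM (3.74 to 7.42 in the other double-negative libraries), arhgap4a at 23.09 TPM (9.73 to 14.5) and BCL6 at 27.04 TPM (3.54 to 11.46). In double-negative pool 9, c2cd4a was at 13.7 TPM, beside 1.46 to 4.1 TPM in the others. Without mCherry-positive pool 5 clcf1 no longer met the rule, and without pool 6 HELB did not.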

How the results depend on the processing

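For single genes, 834 values under the alternatives kept their direction and their side of the threshold, 63 kept the direction and lost the call, 57 of the untested values moved by more than 1 SD, and none reversed. Of citrine-positive against double-negative cells, the 5 called genes of the set became 3 with no filter, 2 with the replicate block and 1 within pools 2 to 8, where 772 genes were called in place of 1876 and the citrine-positive sort was the single library of pool 7, assumed to vary like the other groups. Leaving out 1 library gave 2 to 5 genes of the set and 1250 to 1908 genes in all. Median-of-ratios scaling called 36.4% of its genes as higher, beside 18.0%, and shifted the median of all genes by 0.20. Pairing by pool was not possible for mCherry-positive cells at 7 dpi against uninjured, which share no pool. There 132 genes and 10 genes of the pathway lists were called, against 4 and 1 on the compared groups alone and 86 and 6 with a pseudocount of 5, at which 37.2% of the calls were higher, beside 60.6%. The split was 79.4% with a pseudocount of 0.1 and 71.3% with median-of-ratios scaling. Leaving out 1 library gave 83 to 207 genes and 6 to 9 of the lists. The rule chose 43 genes after median-of-ratios scaling (31 of them among the 52, SOX4, PHLDA3, BCL6, NAA40 and LRRC8D not among them), 109 within pools 2 to 8 (46 shared), 86 at a ratio of 2 (52 shared) and 38 at a ratio of 4 (38 shared). Leaving out 1 library it chose 50 to 117. Without injured pool 5 it kept 27 of the 52. It chose 108 without injured pool 7, 117 without injured pool 9, 91 without uninjured pool 2 and 99 without uninjured pool 3. The causes were not tested. Low RNA input, few libraries and unknown depth limit all values.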
